A study of Homo sapiens with 6 samples.

Results

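Caspases are proteases that cut other proteins after aspartate residues, and they carry out apoptosis and inflammatory cell death. CFLAR (c-FLIP) is a relative of CASP8 that lacks protease activity. The genes described are CASP1, CASP2, CASP4, CASP6, CASP8, CASP9, CASP10 and CFLAR. They were taken by gene symbol from a table of read counts, as 8 of its 23250 genes. All 8 were found, and all 8 passed the filter on low counts that left 12406 genes for testing. CASP1 passed this filter only through the mutant rescue, where it was higher, so it had to differ in order to be tested and is left out of the counts of members read against the background.

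RNA was sequenced from OCI-LY1, a cell line established from a human diffuse large B cell lymphoma. In both groups an siRNA against BCL6, the transcriptional repressor of germinal centre B cells, was directed at the cells' own transcript. BCL6 was then supplied from an ectopic copy, wild-type in the first group (wild-type rescue) and with a mutated second repression domain, RD2, in the other (mutant rescue). There were 3 libraries of each, none without a rescue, and the promoter that drove the ectopic copy is not stated in these sources. The labels name no separate cultures, so p-values cover only the variation among the sequenced libraries, part or all of which may be technical.

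Libraries held 26298456 to 27574867 counts. BCL6 had 16998 to 19069 counts per library in the wild-type libraries and 13726 to 14166 in the mutant libraries, and gene counts do not separate the ectopic from the endogenous transcript. It was thus lower in the mutant libraries (log2 fold change -0.38; edgeR, adjusted p = 7.90e-10). The groups differed in BCL6 transcript level as well as in the RD2 mutation, and the part of each in the results below was not tested. The B cell identity markers CD79A, with 15780 to 17585 counts per library, and PAX5, with 6064 to 7510, were abundant. The 8 T and NK cell markers summed to 0.298 to 0.693 CPM (counts scaled to library size), with CD3E and CD2 at 0 counts in every library. The 8 stromal and epithelial markers, mostly EPCAM, summed to 17.3 to 18.3 CPM in wild-type and 4.32 to 5.03 CPM in mutant libraries. Among replicates, mutant rescue library 2 stood furthest apart: its counts differed from those of libraries 1 and 3 with a chi-square per degree of freedom of 5.47 and 4.36, against 1.75 between libraries 1 and 3. Results for the caspase genes are therefore also given without it.

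The death receptor route starts when receptors such as FAS recruit the adaptor FADD, which gathers the initiators CASP8 and CASP10. CFLAR enters the same complex and limits or tunes CASP8 activation. The mitochondrial route starts when cytochrome c and APAF1 form the apoptosome, which activates the initiator CASP9. CASP2 is activated on a platform of PIDD and CRADD, CASP6 is an executioner caspase that cuts lamins, and CASP1 and CASP4 are inflammatory caspases that cut gasdermin D. Germinal centre B cells are known for being prone to apoptosis and for holding CFLAR in the FAS complex.

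For orientation, stretches of sequence upstream of annotated starts were read for CASP8, a member that fell and that held the only match among the windows to TTCNNNGAA, a pattern of the kind bound by BCL6 and STAT factors, and for CASP2, which did not pass the test. They come from RefSeq (GRCh38.p14), outside GENCODE v29 exons. They are printed 5′ to 3′ on the strand of the gene, which is the plus strand for both, with the first match in capitals.
CASP8, chr2:201233238-201233296, first base of the match 200 bases before the start: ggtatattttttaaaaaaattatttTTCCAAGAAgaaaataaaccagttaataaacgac
CASP2, chr7:143288137-143288192, first base of the match 189 bases before the start: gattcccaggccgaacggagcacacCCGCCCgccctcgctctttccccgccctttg

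Promoter windows were at hand for 6 of the 8 genes, 13 windows in all, and the 250 bases upstream of the start were searched on both strands. GENCODE v29 exons covered from 0 of these bases, as in the second CFLAR window, to all 250 in the CASP4 window. In the first and second CASP9 windows they covered 230 and 38, so some of the matches counted here lie within exons. TTCNNNGAA was found in 1 of these 13, the CASP8 window shown, and in 6.57% of all 35114 windows of the same length. GAAANNGAA, the core of interferon response elements, was in 1 of the 13, the third CFLAR window, and in 6.88% of all windows. GGGCGG, a GC box, marked in the CASP2 stretch as its reverse complement, occurred 4 times in the first CASP2 window (overlapping matches included), and 8 times in each of 2 CASP9 windows. Later matches in the printed CASP2 stretch, of which the nearest overlaps the first, are not marked. It was present at least once in 8 of the 13 windows and in 42.6% of all windows. These matches are descriptions of the letters, not binding sites.

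The inflammatory caspases CASP1 and CASP4 and the executioner CASP6 rose in the mutant libraries, by 3.93-fold, 1.78-fold and 1.35-fold. The initiators CASP8 and CASP9 fell, by 1.10-fold and 1.17-fold. CASP2, CASP10 and CFLAR did not pass the test. In all, 5 of 8 members changed (edgeR quasi-likelihood test over all genes, Benjamini-Hochberg adjusted p under 0.05). This count includes CASP1, which was tested only because it was higher in the mutant rescue, so it is not read against the background. In the same test 70.1% of all tested genes changed, 35.4% higher and 34.8% lower. Without CASP1, 4 of 7 members changed, 2 of them higher, so the share was not above this background. For 5 of the 7 members other than CASP1, every value of one group lay above every value of the other, compared with 72.4% of all tested genes. The median log2 fold change was 0.04 over the 7 members other than CASP1 and 0.01 over all tested genes. When changes had to exceed 1.2-fold (glmTreat in edgeR), 2 of the 7 members other than CASP1 passed, CASP4 and CASP6, compared with 37.0% of all tested genes. CASP1 also passed. Fold changes are mutant relative to wild-type rescue throughout, and CPM values are scaled by TMM, edgeR's correction for library composition.

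**Figure D1:**
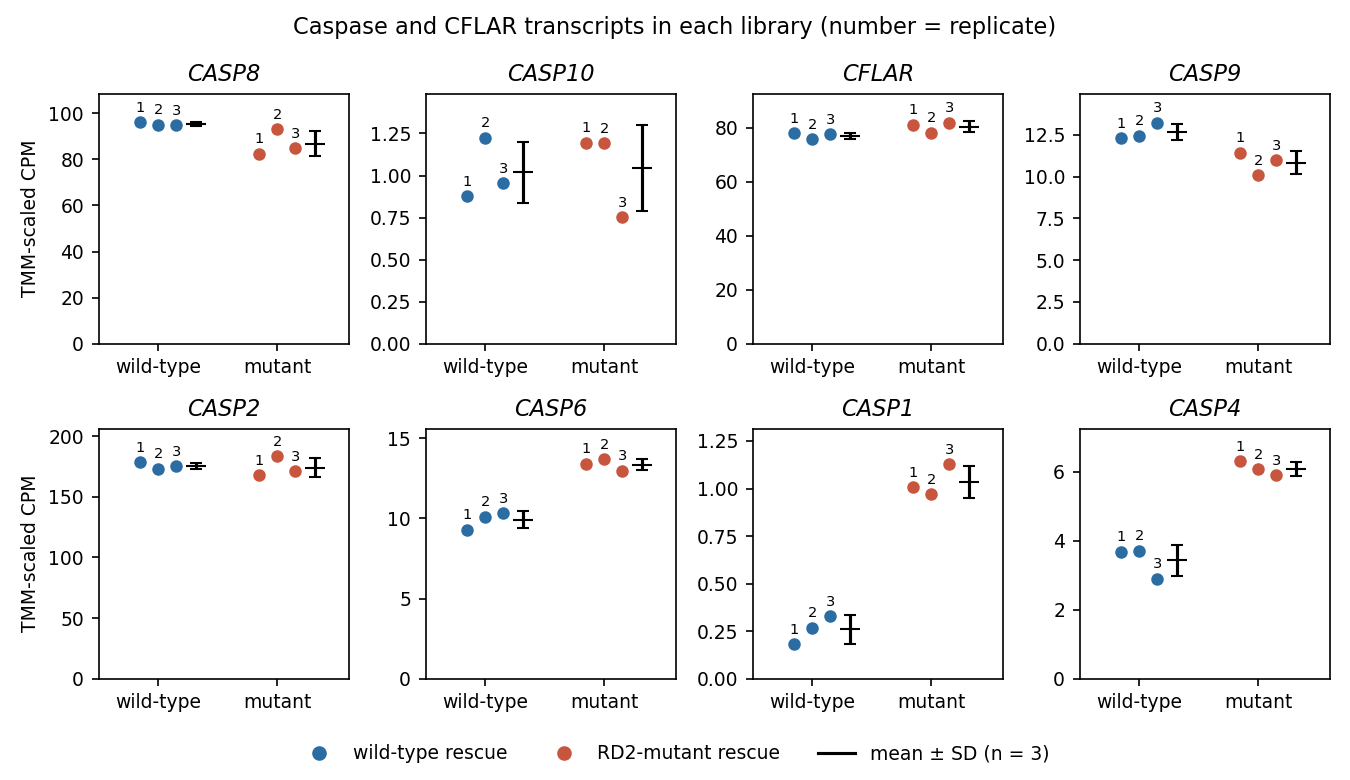
Each panel plots TMM-scaled CPM (y axis, from 0) for 1 gene in the 3 wild-type and 3 mutant rescue libraries, numbered by replicate, with the mean ± SD (n = 3) as bars. The groups were separate for CASP1, CASP4, CASP6, CASP8, CASP9 and CFLAR and overlapped for CASP2 and CASP10.

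**Figure D2:**
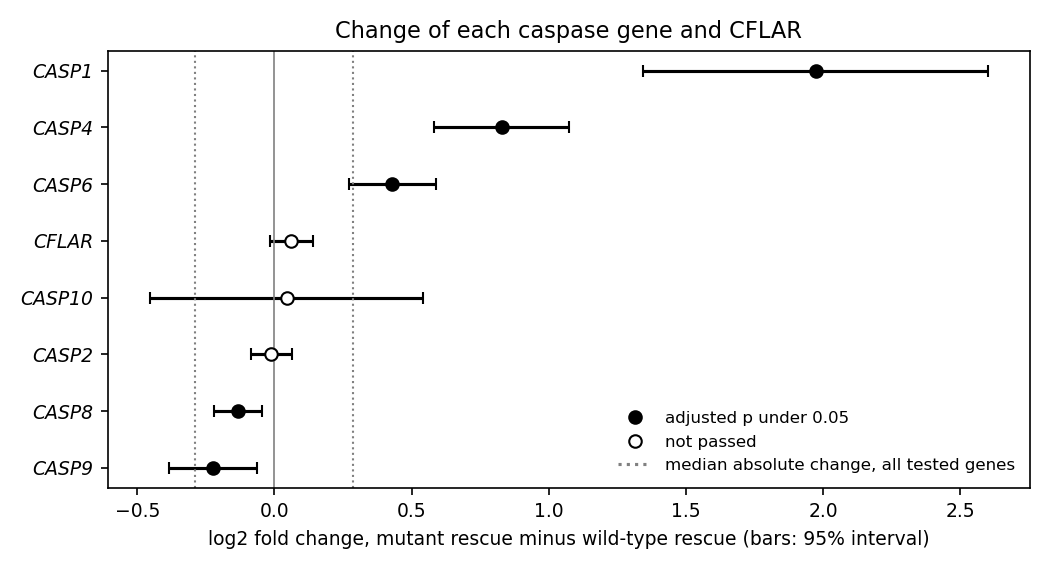
Log2 fold change of each gene (x axis, mutant minus wild-type rescue) with its 95% interval from the edgeR fit; filled points passed at adjusted p under 0.05, and dotted lines mark the median absolute change over all tested genes, 0.29. CASP1 (1.97) and CASP4 (0.83) lie furthest out, and the intervals of CASP2, CASP10 and CFLAR include 0.

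Among the death receptor initiators, CASP8 was abundant and slightly lower in the mutant libraries. It measured 96.2, 94.9 and 94.9 CPM in wild-type rescue libraries 1 to 3 and 82.4, 93.2 and 84.9 CPM in the mutant libraries. The groups did not overlap, but mutant library 2 lay close to the wild-type values while libraries 1 and 3 were lower. The mean went from 95.3 ± 0.732 to 86.8 ± 5.61 CPM (SD, n = 3), a log2 fold change of -0.13 (SE 0.042; edgeR, adjusted p = 0.00791). This call was lost without mutant library 1 (log2 -0.10; edgeR, adjusted p = 0.0531) and the fall was -0.19 without mutant library 2, with adjusted p from 1.06e-05 to 0.0531 over the 15 alternatives tried.

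CASP10, the close relative of CASP8 in the next gene along the chromosome, was scarce. It had 24, 32 and 26 counts in the wild-type libraries and 32, 32 and 20 in the mutant libraries, so the groups overlapped fully. Its mean was 1.02 ± 0.183 CPM in the wild-type and 1.05 ± 0.255 CPM in the mutant libraries (SD, n = 3). The log2 fold change of 0.04 did not pass (edgeR, adjusted p = 0.878). Its 95% interval ran from -0.46 to 0.54, so a change of a size within that range remains possible. The sign turned without mutant library 2 (log2 -0.061; edgeR, adjusted p = 0.849), without mutant library 1 (-0.062) and without wild-type library 1 (-0.055). Adjusted p ranged from 0.427 to 0.992 over 14 alternatives.

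CFLAR measured 78.0, 75.8 and 77.6 CPM in the wild-type libraries and 81.3, 78.2 and 82.0 CPM in the mutant libraries. All 3 mutant values lay above the wild-type values, by little for library 2. The means were 77.1 ± 1.16 and 80.5 ± 2.02 CPM (SD, n = 3), and the log2 fold change of 0.06 (95% interval -0.02 to 0.14) did not pass the test (edgeR, adjusted p = 0.154). It passed without mutant library 2 (log2 0.08, adjusted p = 0.0445) and with scaling by library size alone (log2 0.09, adjusted p = 0.0435), with edgeR's test in both cases. Adjusted p ranged from 0.0435 to 0.358 over 15 alternatives. Gene counts do not separate the long and short forms of c-FLIP.

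Since CFLAR and CASP8 proteins meet in one complex, their counts were also compared within each library, which needs no scaling between libraries. There were 0.798 to 0.818 CFLAR counts per CASP8 count in the wild-type libraries and 0.839 to 0.986 in the mutant libraries. On the log2 scale the wild-type libraries gave -0.30, -0.33 and -0.29 and the mutant libraries -0.02, -0.25 and -0.05. The ratio was higher in all 3 mutant libraries, with library 2 again near the wild-type values, and the difference was 0.27 without that library. The means differed by 0.20, from -0.31 ± 0.018 to -0.11 ± 0.13 (SD, n = 3), with an exact two-sided permutation p = 0.1, the smallest that 3 libraries against 3 can give (0.15 after Benjamini-Hochberg adjustment over 3 ratios). The log2 ratio of CASP10 to CASP8 overlapped between the groups, at -6.56 ± 0.26 and -6.41 ± 0.37 (SD, n = 3; exact permutation p = 0.8, 0.8 adjusted).

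**Figure D3:**
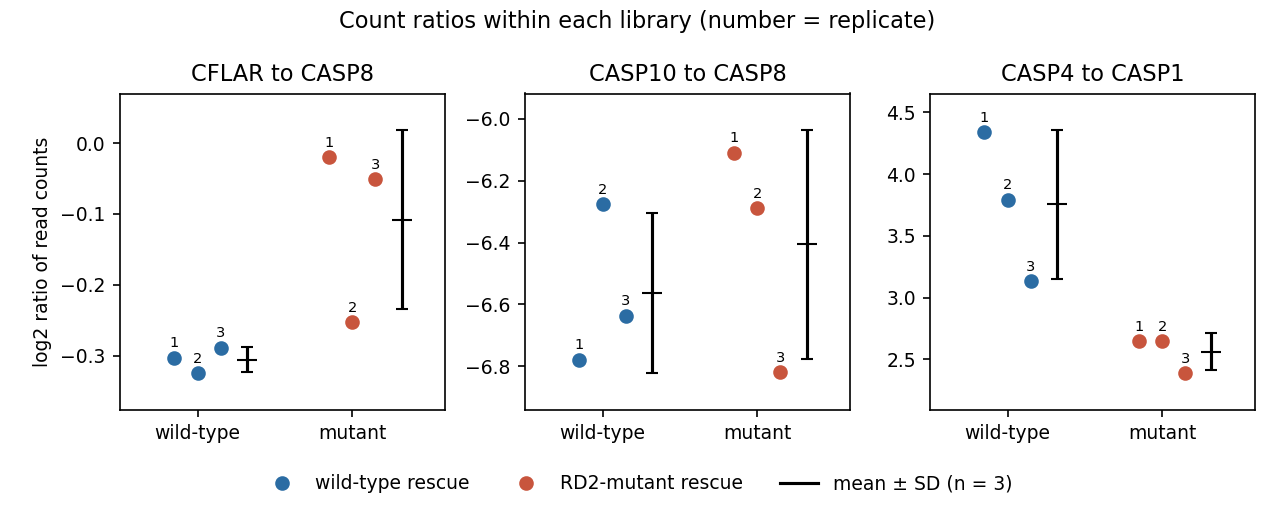
Log2 ratios of read counts (y axis) within each of the 3 wild-type and 3 mutant rescue libraries for CFLAR to CASP8, CASP10 to CASP8 and CASP4 to CASP1, with the mean ± SD (n = 3) as bars; the y axes differ and do not start at 0. The groups are separate for CFLAR to CASP8 and for CASP4 to CASP1 and overlap for CASP10 to CASP8.

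CASP9, the apoptosome initiator, measured 12.3, 12.4 and 13.2 CPM in the wild-type libraries and 11.4, 10.1 and 11.0 CPM in the mutant libraries. Every mutant library lay below every wild-type library. The mean fell from 12.6 ± 0.489 to 10.8 ± 0.674 CPM (SD, n = 3), a log2 fold change of -0.22 (SE 0.077; edgeR, adjusted p = 0.0136). This call rested on single libraries: it was lost without wild-type library 3 (log2 -0.19; edgeR, adjusted p = 0.0789) and without mutant library 2 (log2 -0.18; edgeR, adjusted p = 0.0562), within a range of 0.00573 to 0.0789 over 15 alternatives.

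CASP2 had the most counts of the 8 genes and showed no consistent direction. It measured 178, 173 and 175 CPM in the wild-type libraries and 168, 183 and 171 CPM in the mutant libraries, where library 2 was the highest of all 6 and libraries 1 and 3 the lowest. The log2 fold change was -0.01 (SE 0.036; edgeR, adjusted p = 0.775), with a 95% interval of -0.09 to 0.06. Without mutant library 2 it was -0.05 (edgeR, adjusted p = 0.104, in a range of 0.104 to 0.981 over 15 alternatives).

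CASP6, the executioner caspase, measured 9.30, 10.1 and 10.3 CPM in the wild-type libraries and 13.4, 13.7 and 13.0 CPM in the mutant libraries. The groups were well apart, and replicates within each group were close. The mean rose from 9.91 ± 0.532 to 13.3 ± 0.357 CPM (SD, n = 3), a log2 fold change of 0.43 (SE 0.076; edgeR, adjusted p = 3.63e-05), and was 0.41 without mutant library 2. In the RefSeq order CASP6 overlaps MCUB, listed in the table as CCDC109B, which fell (log2 -0.16; edgeR, adjusted p = 0.00504) and had up to 4053 counts per library, and reads shared between them cannot be assigned with certainty.

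CASP1, which activates interleukin 1 beta, had the largest fold change of the 8 genes at the lowest level. It had 5, 7 and 9 counts in the wild-type libraries and 27, 26 and 30 in the mutant libraries, that is 0.182, 0.268 and 0.330 CPM against 1.01, 0.969 and 1.13 CPM. All mutant values were far above the wild-type values, which stood just over the 3 counts (0.109 to 0.114 CPM) taken as the detection floor. The mean rose from 0.260 ± 0.0742 to 1.03 ± 0.0826 CPM (SD, n = 3), a log2 fold change of 1.97 (SE 0.30; 95% interval 1.35 to 2.60; edgeR, adjusted p = 6.41e-06). It was 2.02 without mutant library 2. No wild-type library reached the minimum of the filter on low counts, so the p-value and interval of CASP1 are given as a description only.

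CASP1 is known for high expression in myeloid cells, so myeloid markers were read beside it. The 8 markers summed to 2.09 to 2.63 CPM in the wild-type and 3.65 to 5 CPM in the mutant libraries. CD68 rose (log2 0.58; edgeR, adjusted p = 0.00347). FCER1G had 0, 2 and 1 counts in the wild-type and 19, 18 and 18 in the mutant libraries, and was tested only through the mutant rescue. CD14 had 0 to 4 and 4 to 14 counts, LYZ had 0 counts in the wild-type and 1 to 6 in the mutant libraries, and S100A8 and S100A9 were at 0 in every library. The groups overlapped for CSF1R, with 1, 0 and 1 counts in the wild-type and 0, 2 and 1 in the mutant libraries. They also overlapped for ITGAM, with 3, 4 and 2 counts against 5, 2 and 4. The part of myeloid transcripts in the result for CASP1 was not tested, and in bulk RNA a change in the number of cells of a type and in RNA per cell cannot be told apart. CARD16, the next gene to CASP1 and a near copy of its first part, had 14 to 18 counts in the wild-type and 14 to 20 in the mutant libraries (log2 0.04; edgeR, adjusted p = 0.909). Reads shared between these genes cannot be assigned with certainty.

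CASP4, the intracellular sensor of bacterial lipopolysaccharide, measured 3.69, 3.71 and 2.90 CPM in the wild-type libraries and 6.31, 6.07 and 5.90 CPM in the mutant libraries. The groups were well apart. The mean rose from 3.43 ± 0.463 to 6.09 ± 0.205 CPM (SD, n = 3), a log2 fold change of 0.83 (SE 0.12; edgeR, adjusted p = 2.48e-06), and was 0.83 without mutant library 2. CASP5, which lies between CASP4 and CASP1, and CASP12 and CASP14 had 0 counts in every library, which allows up to 3 counts each, or 0.114 CPM in the shallowest library. The log2 ratio of CASP4 to CASP1 counts was 4.34, 3.79 and 3.13 in the wild-type libraries and 2.65, 2.65 and 2.39 in the mutant libraries. The means were 3.75 ± 0.60 and 2.56 ± 0.15 (SD, n = 3), a difference of -1.19 that became -0.66 when 5 counts were added to each gene. It rests on 5 to 9 CASP1 counts per wild-type library. It is given as a description only, since CASP1 was tested only because it was higher in the mutant rescue.

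Genes next to the members along the chromosomes were read in the same fit. PDGFD, the nearest protein-coding gene of the table on the other side of CASP4, fell (log2 -0.56; edgeR, adjusted p = 7.45e-05) while CASP4 rose. PLA2G12A, beside CASP6, fell (log2 -0.44; edgeR, adjusted p = 9.94e-06). CFLAR, CASP10 and CASP8 stand in a row on chromosome 2 and gave log2 fold changes of 0.06, 0.04 and -0.13, of which the last passed. On either side of this row, NDUFB3 gave 0.05 (edgeR, adjusted p = 0.336) and ALS2CR12, with 14 to 17 counts, 0.13 (edgeR, adjusted p = 0.696). DNAJC16, beside CASP9, gave -0.11 and did not pass (edgeR, adjusted p = 0.0681). CFLAR-AS1, which overlaps CFLAR, had at most 3 counts in any library.

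Levels were compared between genes per kilobase of the longest GENCODE v29 transcript, as CPM per kb. In the wild-type rescue CASP8 (32.5 ± 0.250) and CASP2 (30.4 ± 0.466) led, followed by CASP6 (6.40 ± 0.343) and CFLAR (5.26 ± 0.0793; all SD, n = 3). CASP9 stood at 2.83 ± 0.110, CASP4 at 0.723 ± 0.0975, CASP10 at 0.172 ± 0.0309 and CASP1 at 0.130 ± 0.0371 CPM per kb (SD, n = 3). CASP10 and CASP1 were within their spread of each other there. In the mutant rescue CASP2 (30.2 ± 1.41) and CASP8 (29.6 ± 1.92) were within their spread, and CASP1 (0.517 ± 0.0413) stood above CASP10 (0.176 ± 0.0430 CPM per kb; SD, n = 3). The length used matters. Per kilobase of all annotated exons, wild-type rescue CASP2 was at 21.9 and CASP8 at 13.2 CPM per kb. The other genes kept their order, with CASP10 at 0.134 and CASP1 at 0.0704 CPM per kb. CFLAR ranked below CASP6 only after division by length, as its wild-type mean was 77.1 CPM against 9.91 CPM. The longest transcripts used were 14672 bases for CFLAR and 1548 bases for CASP6.

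Genes around the caspases in their pathways were read from lists, described by counts and medians only. Over all tested genes 70.1% changed, 35.4% higher and 34.8% lower, with a median log2 fold change of 0.01. Of 6 apoptosome and mitochondrial factors, 2 rose and 4 fell (median log2 -0.25). Cytochrome c, CYCS, went from 354 ± 3.51 to 251 ± 9.75 CPM (SD, n = 3; log2 -0.50; edgeR, adjusted p = 2.40e-11), and APAF1, the scaffold that activates CASP9, fell by 0.19 on the log2 scale. The flavoprotein gene AIFM1 (-0.32) and the nuclease gene ENDOG (-0.51) fell, and HTRA2, a mitochondrial protease that relieves caspase inhibition, rose (0.34). Of 5 tested inhibitor of apoptosis genes, 2 rose and 3 did not pass (median 0.07). BIRC5 (0.32) and BIRC2 (0.30) rose, and XIAP, the direct inhibitor of CASP9, gave -0.09 (edgeR, adjusted p = 0.0612).

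Of 9 tested death receptor and ligand genes, TNFRSF1A had no wild-type library over the count minimum of the filter. Of the 8 others, 3 rose, 3 fell and 2 did not pass (median 0.14). Not every mutant library was over the minimum for TNF, and without it as well 3 of 7 rose and 2 fell (median 0.44), so the median rests on single genes. FAS had 127 to 156 counts in the wild-type and 124 to 129 in the mutant libraries and did not pass (log2 -0.16; edgeR, adjusted p = 0.207). The TNF receptor gene TNFRSF1A had 8, 6 and 4 counts in the wild-type and 59, 61 and 66 in the mutant libraries (log2 3.35; edgeR, adjusted p = 3.14e-10). It was tested only through the mutant rescue, so its p-value is given as a description only. The gene is left out of the numbers of genes that rose or fell. TNFRSF21, which encodes death receptor 6, went from 497 to 540 counts per library to 4171 to 4526 (log2 3.07; edgeR, adjusted p = 4.06e-22). The TRAIL receptor genes moved in opposite directions, TNFRSF10A down (-0.65) and TNFRSF10B (0.44) and TNFRSF10D (0.63) up. The ligand gene TNF fell (-1.89), from 47 to 51 counts to 7 to 18, and FASLG was at 0 counts in every library.

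Of 19 adaptors and regulators of this route, 9 rose, 4 fell and 6 did not pass (median 0.02). FADD, which binds CASP8, rose by 0.15, and the deubiquitinase genes TNFAIP3 (0.85) and CYLD (0.50) and the FAS binding factor gene FAF1 (0.48) rose. RIPK3, the kinase of necroptosis that CASP8 holds in check, fell from 10.9 ± 0.780 to 6.83 ± 0.235 CPM (SD, n = 3; log2 -0.67; edgeR, adjusted p = 7.93e-07). Both tested genes of the CASP2 platform rose, PIDD by 0.39 and CRADD by 0.36.

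Of 9 tested inflammasome and pyroptosis genes, 2 rose, 2 fell and 5 did not pass (median 0.04). PYCARD, the adaptor that recruits CASP1, rose from 6.49 ± 0.217 to 11.5 ± 1.00 CPM (SD, n = 3; log2 0.83; edgeR, adjusted p = 5.21e-08), and CARD8, an inflammasome sensor, rose by 0.92. AIM2, the sensor of cytosolic DNA, fell from 129 to 162 counts per library to 25 to 36 (log2 -2.17; edgeR, adjusted p = 9.89e-11). The gasdermin E gene, DFNA5, fell (-0.67). Chosen after their values were seen, the CASP1 substrates IL1B and GSDMD were also read. IL1B had 2, 3 and 2 counts in wild-type and 15, 9 and 24 in mutant libraries and did not pass the filter, and IL18 was at 0 counts throughout. GSDMD, the gasdermin that CASP1 and CASP4 cut, had 1243 to 1408 counts against 1253 to 1469, with no call (log2 0.06; edgeR, adjusted p = 0.367).

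Of 11 substrate and nuclease genes, 4 rose, 4 fell and 3 did not pass (median -0.04). DFFA, the inhibitor of the caspase-activated nuclease, fell (-0.46), as did the kinase gene STK4 (-0.39). LMNB1, a lamin, and SPTAN1, a spectrin, rose (0.40 and 0.53). The lamin gene LMNA, named after its value was seen, fell from 136, 123 and 113 counts to 77, 59 and 81 (log2 -0.77; edgeR, adjusted p = 5.07e-05). Of 12 transcription factor genes known to act on caspase genes or CFLAR, 5 rose, 5 fell and 2 did not pass (median 0.08). IRF1, an activator of CASP1, rose from 315, 318 and 387 counts to 1478, 1380 and 1391 (log2 2.07; edgeR, adjusted p = 8.83e-17), and IRF2 rose by 0.66. REL, a subunit of NF-kB, the activator of CFLAR, fell (-1.30), as did MYC (-0.51).

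**Figure D4:**
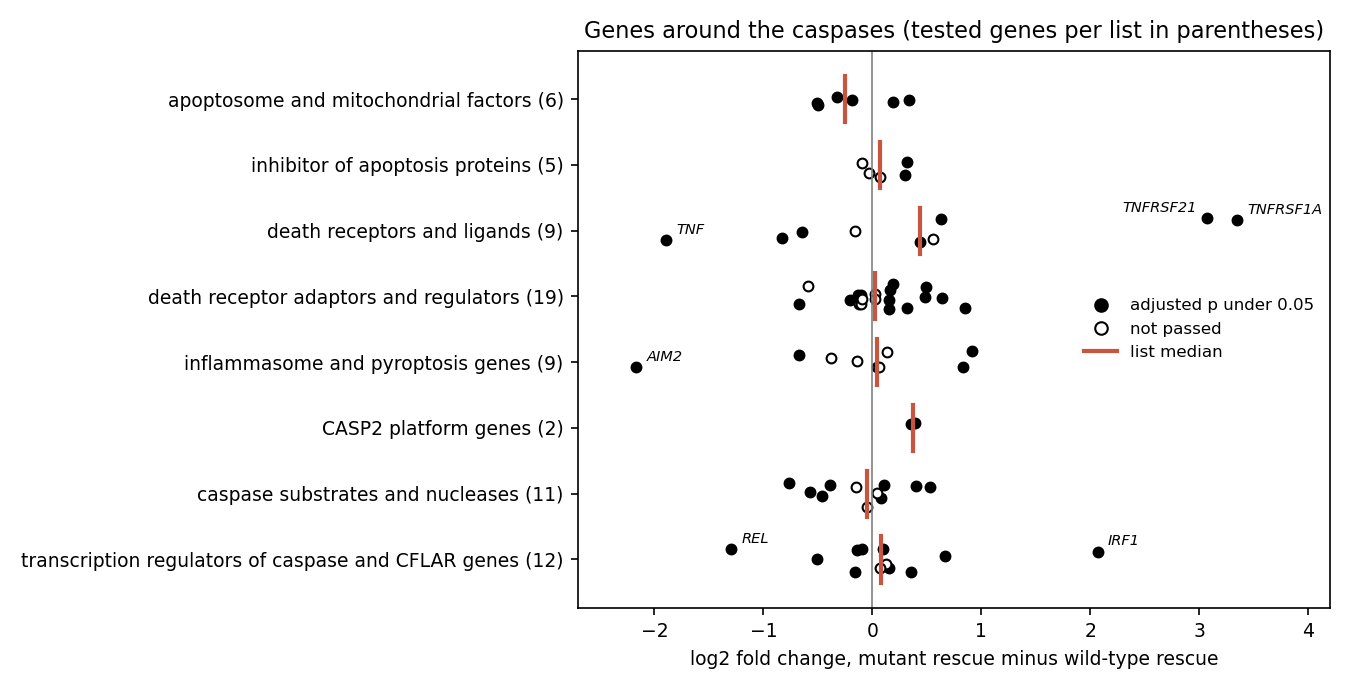
Log2 fold change (x axis, mutant minus wild-type rescue) of each tested gene of 8 lists (rows, number of tested genes in parentheses); filled points passed at adjusted p under 0.05, open points did not, red bars are list medians, vertical jitter has no meaning, and genes at or beyond 1 are named. Over all tested genes of each list, TNFRSF1A and TNF included, list medians lay between -0.25 and 0.44, with single genes such as TNFRSF1A (3.35) and AIM2 (-2.17) far from their list.

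The genes whose profile over the 6 libraries was nearest to a member, by the root mean square difference of centred log2 CPM, were found among those with a mean log2 CPM of at least 1. For CASP8 they were STK17B (0.018), PICALM (0.019) and PAFAH1B2 (0.021). For CFLAR they were ACSF3 (0.009), CD79A and INCENP (0.011 each), and for CASP6 DUSP22 (0.021), GGPS1 (0.022) and LOC100507217 (0.023). CASP9 was nearest to TBC1D25 (0.015) and CASP2 to NUFIP2 (0.011). CASP4, CASP1 and CASP10, with fewer counts, had more distant nearest genes, BFSP2 (0.073), MAP2 (0.135) and GLIPR2 (0.159). CASP1 and CASP10 have mean log2 CPM of -0.73 and 0.13, below the minimum for candidates. They could thus be matched only to genes of higher mean, so their distances depend in part on this minimum.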

How the data were processed

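The submitters' processing notes name CASAVA 1.8.2, STAR, edgeR and build hg19. How reads were counted, on which annotation and strand, and what was done with multi-mapping reads is not given in the sources used here. Values as deposited by the authors are raw counts of reads for each gene symbol, with the 6 libraries in separate columns. Genes were filtered with filterByExpr (10 counts at the median depth, 0.374 CPM, in 3 libraries), scaled by TMM and tested in R 4.3.3 with edgeR 4.0.16 (robust quasi-likelihood fit, both groups, no covariate), with Benjamini-Hochberg adjustment over all 12406 tested genes and a threshold of 0.05. Replicate pairs differed by more than counting noise (chi-square per degree of freedom at least 1.60), so all 6 libraries were kept. Floors and intervals on counts cover counting error only. Members, lists and tests were chosen with earlier results of these data known. Named were all members, the first gene, the 4 changed genes with the smallest p and genes beyond 1 on the log2 scale in each list, nearest profiles and neighbouring genes; some genes taken by this rule are not reported here. Gene order came from RefSeq (96.4% of tested genes matched) and transcript lengths from GENCODE v29, both on a later build. Tried as well were DESeq2 1.42.0, voom (limma 3.58.1), the likelihood ratio test, glmTreat, scaling by RLE, by upper quartile or by total counts alone, other filters, a replicate block, and each library left out.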

Additional observations from a re-analysis of the deposited data

How the results depend on the processing

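The directions and calls of CASP4 and CASP6 were the same under every alternative run on them, with log2 fold changes of 0.72 to 0.89 and 0.39 to 0.46. For CASP1 the log2 fold change ranged from 1.77 to 2.19. That range is a description only, since CASP1 was tested only through the mutant rescue. A minimum of 1 CPM in all libraries left CASP1 and CASP10 untested. Against 1.2-fold (glmTreat), 4585 of all genes and 3 of the members, CASP1 among them, passed. CASP2 changed sign with library size scaling (0.013) and with the 1 CPM filter (0.004). Leaving out each library in turn gave -0.052 to 0.014 for CASP2, -0.062 to 0.231 for CASP10, -0.19 to -0.10 for CASP8, -0.26 to -0.18 for CASP9 and 0.05 to 0.08 for CFLAR, with 4 to 5 members and 8099 to 8916 genes called. The log2 ratio of CASP4 to CASP1 moved from -1.19 to -0.66 when 5 counts were added to each gene, and was -1.50 to -0.90 with a library left out; that of CFLAR to CASP8 was 0.15 to 0.27 and that of CASP10 to CASP8 0.01 to 0.36. All 54 list counts and medians recomputed under 3 other scalings stayed within 1.5 times or 0.05 of the main value. Chosen after seeing the data, the death receptor list was also read without genes over the count minimum in 1 group only: its median was 0.14 without TNFRSF1A, 0.44 without TNFRSF1A and TNF, and 0.44 with both.

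Replicate numbers are shared by the groups' labels. The deviations of same-numbered libraries from their group means correlated across genes at 0.43, 0.44 and -0.08. Wild-type library 1 with mutant library 2 gave -0.47, and wild-type library 2 with mutant library 1 gave -0.46. Libraries 1 and 2 thus correlated best with their own number and library 3 did not, so the numbers were not taken to pair the libraries. What libraries 1 and 2 share across the groups was not tested. With the replicate block 9285 genes, against 8702 without it, and 5 members were called. CASP8 gave -0.14 (edgeR, adjusted p = 0.000107) and CASP9 -0.22 (edgeR, adjusted p = 0.00573). Paired ratios had exact sign-flip p of 0.25, 1 and 0.25, where 0.25 is the smallest 3 pairs allow.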
